A study of Homo sapiens with 30 samples.

Results

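The genes described here are 10 components of the NF-κB pathway, followed across 6 groups of U2OS cells, a human osteosarcoma cell line. They were chosen by name, with no use of their values in the rule but with earlier results of these data known. The rows taken were those of the count table whose symbol was NFKB1, NFKB2, REL, RELA, RELB, NFKBIA, NFKBIE, TNFAIP3, TRAF1 or BIRC3. This gave 10 of the 57373 genes in the table. All 10 passed the filter on low counts. The first 5 encode the NF-κB subunits, NFKBIA and NFKBIE encode inhibitors that bind the subunits, and TNFAIP3, TRAF1 and BIRC3 encode regulators of the signal that reaches them. Each gene was measured by sequencing of messenger RNA, and its level is given in CPM, counts divided by a scaled library size, which compares libraries but not genes of different length.

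The experiment crossed a transfection with a drug. Cells of the first group, dhelix FOXP2 + CHIR, carried a plasmid for FOXP2 without its residues 264 to 272 and had the drug CHIR. Cells of WT FOXP2 + CHIR carried a plasmid for wild-type FOXP2 and had the drug, and cells of CHIR had the drug and no FOXP2 plasmid. Cells of dhelix FOXP2 and WT FOXP2 carried the same plasmids without the drug, and mock cells went through transfection without a FOXP2 plasmid or the drug. FOXP2 is a forkhead transcription factor, and CHIR blocks glycogen synthase kinase 3 and was given to switch on Wnt signalling through β-catenin. CHIR was given at 5 µM, 72 hours ahead of transfection, and plasmids were used at 500 ng for 48 hours. Each group had 5 libraries that the labels call biological replicates, without saying whether they came from separate cultures, so p-values measure the spread between these libraries. No label tells if the mock transfection contained an empty vector, so in comparisons with mock or CHIR cells the expressed protein and the transfected DNA cannot be told apart as sources of a change. The labels of the CHIR group name the drug alone and do not say if those cells met the transfection reagent. In CHIR against mock cells, drug and transfection procedure therefore cannot be told apart. Where a construct + CHIR is compared with CHIR cells, construct and transfection procedure cannot be told apart. An interaction that uses CHIR cells carries the same limits. In 1 library of WT FOXP2 + CHIR the treatment label names FOXP2 without WT, and it was placed with the other 4. All cells came from 1 line, and FOXP2 was supplied far above its own level.

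NF-κB factors are dimers of Rel family proteins that wait in the cytoplasm, bound by IκB inhibitors. Signals from cytokine and danger receptors activate the IκB kinase complex, which marks the inhibitor for destruction and frees the dimer to enter the nucleus, where it binds κB sites and activates genes of inflammation and survival. Among those genes are the inhibitors themselves and several subunits and signal regulators, so the pathway controls its own output. In osteosarcoma cells the pathway is studied for its part in survival and in bone destruction.

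The RefSeq promoter table, of build GRCh38.p14, held a window of 250 bases before to 50 bases after a start site for 8 of the 10 genes; RELB and NFKBIE are named only. A match to the κB consensus, searched on both strands, lay in a window of 6 of these 8 genes, against 5.91% of all 35116 windows and 7.09% of the 27305 genes with a window. NFKB1 and NFKB2 have more than 1 window each, which gives them more chances of a match. The stretch of 80 bases around the matches is shown for the 6 genes, because they show the letters found in 3 of the 5 subunit genes, 1 of the 2 inhibitor genes and 2 of the 3 regulator genes; capitals mark the matches, and matches that overlap run together.
NFKB1: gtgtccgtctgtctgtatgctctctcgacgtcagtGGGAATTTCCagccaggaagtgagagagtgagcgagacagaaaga
NFKB2: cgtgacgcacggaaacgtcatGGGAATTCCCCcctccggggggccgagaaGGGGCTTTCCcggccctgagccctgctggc
REL: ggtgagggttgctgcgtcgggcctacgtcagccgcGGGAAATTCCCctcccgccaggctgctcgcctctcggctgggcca
NFKBIA: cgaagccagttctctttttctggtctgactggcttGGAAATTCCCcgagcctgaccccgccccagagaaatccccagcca
TNFAIP3: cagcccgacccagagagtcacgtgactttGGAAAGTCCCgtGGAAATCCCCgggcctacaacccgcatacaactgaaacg
BIRC3: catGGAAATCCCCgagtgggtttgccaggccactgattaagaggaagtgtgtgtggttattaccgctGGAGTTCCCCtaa

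The NFKB1 stretch is chr4:102501275-102501354 on the plus strand, 84 to 5 bases before the start site, and that of NFKB2 is chr10:102394450-102394529 on the plus strand, 128 to 49 bases before the start site. The REL stretch is chr2:60881492-60881571 on the plus strand, 82 to 3 bases before the start site, and that of NFKBIA is chr14:35404786-35404865 on the minus strand, 116 to 37 bases before the start site. The TNFAIP3 stretch is chr6:137867163-137867242 on the plus strand, 96 to 17 bases before the start site, and that of BIRC3 is chr11:102317282-102317361 on the plus strand, 202 to 123 bases before the start site. NFKB2 had another 2 matches in the last of its 3 windows. RELA and TRAF1 had no match in their windows. The letters ATCAAAG (TCF/LEF factors), TGTTTAC (forkhead factors) and TGANTCA (AP-1), searched on both strands, were in none of the windows of the 8 genes, against 2.62%, 3.42% and 7.71% of all windows. A match is a description of letters, and its absence from a window of this length says nothing of a factor. The counts were made on build hg19, so these positions serve the sequences alone.

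The 30 libraries held 15755842 to 29466652 counts each, and 18485 genes were tested. The members were well covered: the lowest count of any was 14, for TRAF1 in a mock library. FOXP2 checked the labels, with 13481 ± 917.1 CPM in dhelix FOXP2 + CHIR, 15299 ± 982.9 in WT FOXP2 + CHIR, 0.504 ± 0.462 in CHIR, 5319 ± 640.5 in dhelix FOXP2, 7076 ± 779.0 in WT FOXP2 and 0.898 ± 0.284 in mock cells (mean ± SD, n = 5 each, as for all levels that follow). FOXP2 reads were called as lower with dhelix FOXP2 than with WT FOXP2 without the drug, were not called as different between the constructs with it, and within each construct were over 2-fold more abundant with CHIR. AXIN2, a Wnt target, was at 145.0 ± 15.7 CPM in CHIR and 21.0 ± 1.01 CPM in mock cells. Its level was 62.4 ± 9.67 CPM in dhelix FOXP2 + CHIR and 49.2 ± 5.75 CPM in WT FOXP2 + CHIR. Without the drug it was at 9.99 ± 0.805 CPM in dhelix FOXP2 and 8.11 ± 0.850 CPM in WT FOXP2. Of 8 fixed mesenchymal and osteosarcoma markers 6 were at 1 CPM or more in every group, while TWIST1 was at 0 in 5 of the 6 groups and COL1A2 stayed under 1 CPM. Marker levels moved with the constructs: of the 6 tested mesenchymal markers 1 rose and 5 fell with WT FOXP2 against mock cells, among them COL1A1 (219.0 CPM with WT FOXP2, 1308 CPM in mock cells) and RUNX2 (7.91 and 58.3 CPM in these groups). Of 6 tested epithelial markers 3 rose and 3 fell. KRT18 was at 480.8 CPM with WT FOXP2 and 169.5 CPM in mock cells. CDH1 was at 1.31 and 0.377 CPM in these groups, and ESRP1 at 0.277 and 0.0474 CPM. CLDN4 was at 5.56 and 19.1 CPM in the same groups, EPCAM at 4.16 and 6.71 CPM and KRT8 at 170.2 and 198.8 CPM. Of 4 tested endothelial markers 1 rose and 3 fell, VWF among the latter (1.88 CPM with WT FOXP2, 4.05 CPM in mock cells). In dhelix FOXP2 + CHIR, which was not tested against mock cells, VWF was at 41.2 CPM. CDH5 was at 0.511 CPM there and 0.417 CPM in mock cells, KDR at 0.604 and 1.57 CPM, and TEK at 0.797 and 1.88 CPM. Of 6 myeloid markers, summed over the list, libraries held 21.3 to 27.1 CPM in dhelix FOXP2 + CHIR, 25.4 to 27.5 in WT FOXP2 + CHIR, 1.44 to 2.67 in CHIR, 9.29 to 11.4 in dhelix FOXP2, 12.5 to 14.7 in WT FOXP2 and 0.808 to 1.06 in mock cells, nearly all of it from ITGAM and CSF1R with a construct; the part of these markers in the results was not tested. AIF1 was at 0 in all groups, and LYZ, CD14 and CD68 stayed under 1 CPM. Of 7 lymphocyte markers, CD3D was the only one to pass 1 CPM in a group with a construct, and PTPRC did so in CHIR cells alone. CD3D was at 3.67 CPM in dhelix FOXP2 + CHIR, 2.19 in WT FOXP2 + CHIR and 0.373 in CHIR. Without the drug CD3D was at 5.49 CPM in dhelix FOXP2, 2.13 in WT FOXP2 and 0.0688 in mock cells.

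WT FOXP2 cells had more RNA of all 10 genes than mock cells. The changes covered a wide range, with TRAF1 up 58.6-fold, TNFAIP3 up 12.7-fold and RELB up 12.3-fold at one end, and REL and RELA up 1.47-fold and 1.43-fold at the other. All 10 rose at an adjusted p under 0.05 in edgeR's quasi-likelihood test with Benjamini-Hochberg adjustment over all tested genes, and the 5 libraries of each group did not overlap for any of them. This count must be read against a background in which 81.6% of tested genes were called, 39.9% as higher and 41.6% as lower, and 73% did not overlap. With at least a 2-fold change, 8 of the 10 rose, against 32.6% of tested genes called by this rule, 13.4% as higher and 19.2% as lower. The median log2 fold change was 2.59 over the 10 genes and -0.021 over all tested genes. These libraries come from whole cultures, so more cells with a transcript and more transcript per cell cannot be told apart.

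Among the subunits, the gene for RELB, the partner of NFKB2 products in the non-canonical arm of the pathway, changed most. RELB stood at 80.2, 89.7, 88.9, 96.2 and 82.3 CPM in the WT FOXP2 libraries, against 5.79, 7.10, 7.46, 7.51 and 7.84 CPM in the mock libraries, a log2 fold change of 3.62 ± 0.086 (± standard error, adjusted p = 3.06e-29). Each WT FOXP2 library was thus at least 10 times above every mock library. NFKB2, whose precursor protein is both an inhibitor and the source of a DNA-binding subunit, was at 159.2 ± 9.92 CPM with WT FOXP2 and 36.5 ± 1.962 CPM in mock cells, and NFKB1, its counterpart in the canonical arm, at 138.9 ± 7.29 and 48.1 ± 2.45 CPM. Their log2 fold changes were 2.13 ± 0.05 and 1.53 ± 0.046. RELA, the main transactivating subunit of the canonical arm, changed little, with 112.6 ± 2.02 CPM with WT FOXP2 and 78.5 ± 2.12 CPM in mock cells (0.52 ± 0.045), and so did REL, the subunit best known from lymphocytes, with 34.0 ± 2.31 and 23.2 ± 2.22 CPM (0.55 ± 0.057).

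Both inhibitor genes rose, and unequally. NFKBIE, which encodes IκBε, was at 77.8, 91.0, 95.7, 95.3 and 87.5 CPM in the WT FOXP2 libraries, against 10.6, 9.94, 9.86, 10.9 and 10.3 CPM in the mock libraries (3.12 ± 0.067). NFKBIA, which encodes IκBα, the inhibitor known for its rapid resynthesis, was at 49.9, 53.4, 51.5, 53.2 and 50.7 CPM with WT FOXP2, against 21.2, 18.4, 20.5, 21.5 and 21.3 CPM in mock cells (1.33 ± 0.047). The intervals of the 2 log2 fold changes, 2.99 to 3.25 for NFKBIE and 1.24 to 1.42 for NFKBIA (95%), did not overlap; the difference between the genes was not tested.

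The largest change of the 10 was that of TRAF1, an adaptor that binds TNF receptor family tails together with TRAF2 and the BIRC proteins. Its level was 48.1, 60.2, 56.8, 64.5 and 57.8 CPM in the WT FOXP2 libraries, against 0.924, 1.03, 0.99, 1.13 and 0.808 CPM in the mock libraries (5.87 ± 0.093, adjusted p = 2.08e-35). By the size of the log2 fold change it stood at percentile 99 of all tested genes. TNFAIP3, which encodes A20, an enzyme that edits ubiquitin chains and shuts off the signal, was at 62.6, 82.7, 75.7, 84.1 and 72.0 CPM with WT FOXP2, against 5.74, 5.09, 5.94, 6.14 and 7.04 CPM in mock cells (3.66 ± 0.071). BIRC3, which encodes the ubiquitin ligase cIAP2, was at 35.4, 36.5, 32.3, 34.5 and 36.8 CPM with WT FOXP2, against 3.55, 4.90, 4.45, 4.59 and 3.63 CPM in mock cells (3.05 ± 0.1). No mock library of these 3 genes reached the lowest WT FOXP2 library. An antisense gene of TNFAIP3, AL357060.1, shares 95 exonic bases with it (1.88% of its exons in GENCODE v29), and had 9 to 168 counts in its own row; with the strand setting not given, reads of those bases are uncertain.

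**Figure D1:**
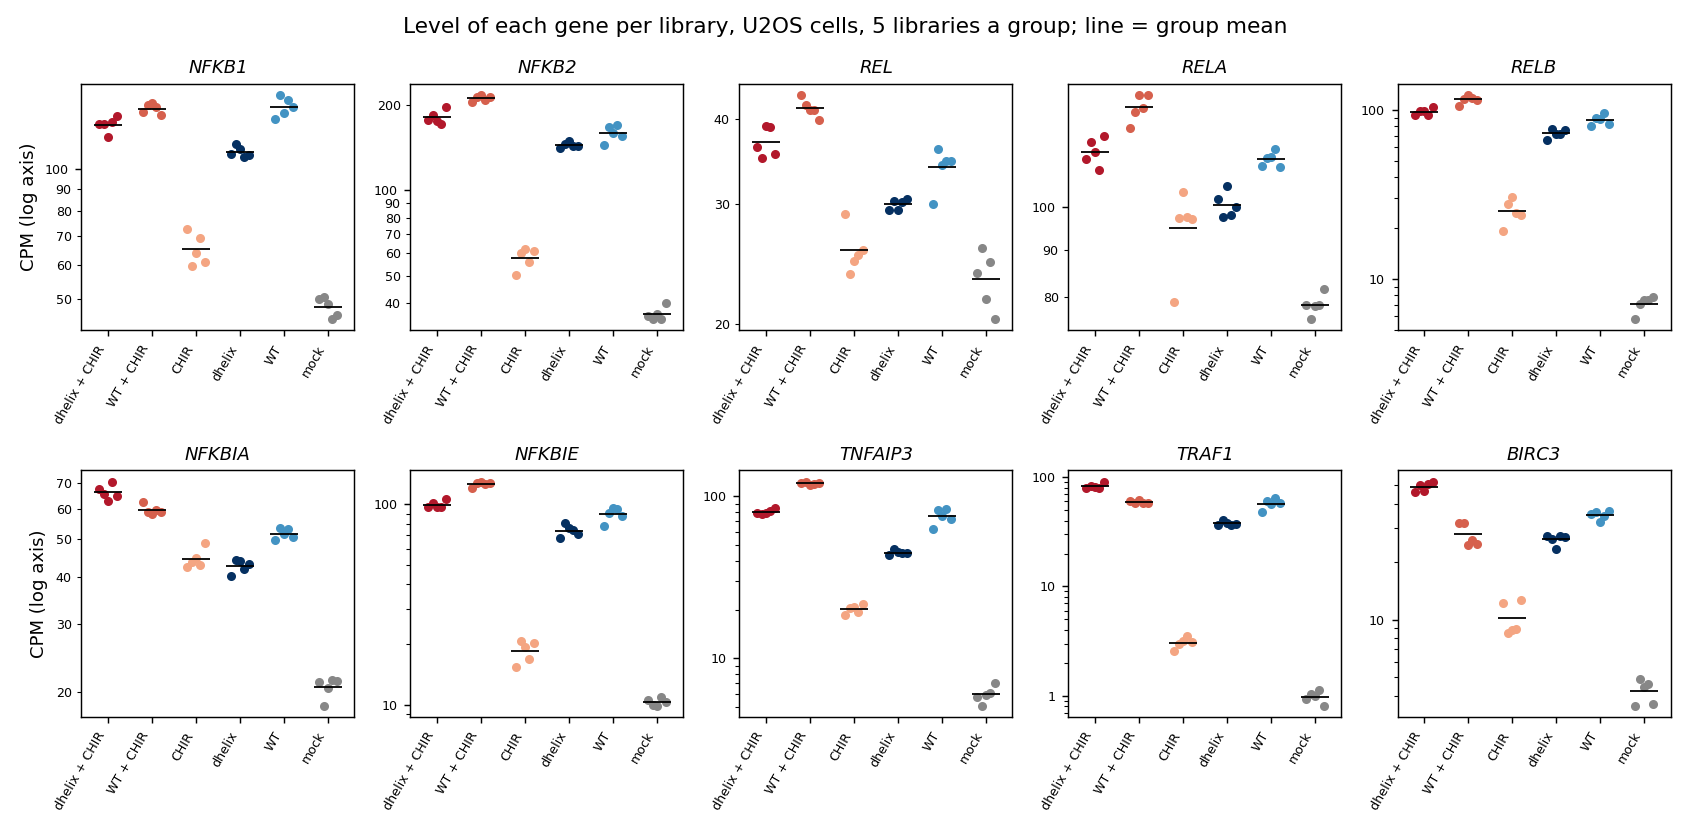
Level of each of the 10 genes in every library, in CPM on a log axis, with 5 points a group and a line at the group mean; a panel has its own axis. The mock group is lowest for all 10 genes, and the CHIR mean is the next lowest for all but NFKBIA, where the dhelix FOXP2 mean is lower and its libraries overlap those of CHIR.

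Helix-deleted FOXP2 gave the same picture at a lower level. In dhelix FOXP2 cells all 10 genes rose against mock cells, where 80.5% of tested genes were called, 39.6% as higher and 40.9% as lower. Of these, 8 rose at least 2-fold, where 29.5% of tested genes passed this rule, 12.8% as higher. Their median log2 fold change was 2.30, with -0.015 over all tested genes. TRAF1 was at 36.4, 40.8, 38.5, 36.5 and 37.7 CPM in the dhelix FOXP2 libraries (5.27 ± 0.095 against mock cells) and TNFAIP3 at 43.3, 47.1, 45.1, 44.9 and 44.4 CPM (2.92 ± 0.072). The smallest changes were again those of RELA (0.36 ± 0.045) and REL (0.37 ± 0.057). Both construct comparisons use the same mock libraries.

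CHIR alone also raised the 10 genes, and for all but NFKBIA by less than either construct did. All 10 rose in CHIR cells against mock cells, in a comparison in which 74.1% of tested genes were called, 38.8% as higher and 35.3% as lower. The libraries did not overlap for 8 of the 10, against 57.7% of tested genes, and 5 rose at least 2-fold, a rule that 22% of tested genes passed and 9% as higher: RELB, TNFAIP3, TRAF1, BIRC3 and NFKBIA. The median log2 fold change was 0.98 for the 10 genes and 0.023 for all tested genes. TNFAIP3 was at 18.6, 20.3, 20.7, 19.4 and 21.7 CPM in the CHIR libraries, a log2 fold change of 1.76 ± 0.079 against mock cells. RELB was at 19.3, 27.7, 30.5, 24.4 and 23.9 CPM in the CHIR libraries (1.82 ± 0.095) and NFKBIA at 42.4, 43.7, 44.7, 42.9 and 48.9 CPM (1.11 ± 0.048). All of these libraries lay above every mock library given above.

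NFKBIA differed from the others in how CHIR compared with the constructs. Its CHIR libraries, at 44.5 ± 2.59 CPM, overlapped the dhelix FOXP2 libraries, at 42.6 ± 1.70 CPM, while for the other 9 genes CHIR had the second lowest mean of the 6 groups. At the other end, TRAF1 reached 2.57, 2.99, 3.16, 3.54 and 3.09 CPM in the CHIR libraries (1.64 ± 0.15), a small part of its level with either construct. BIRC3 was at 12.2, 8.52, 8.82, 8.91 and 12.7 CPM in the CHIR libraries (1.27 ± 0.12), with replicates 1 and 5 above the other 3.

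The call for REL with CHIR alone was not firm. REL was at 29.02, 23.6, 24.7, 25.2 and 25.7 CPM in the CHIR libraries and 23.8, 25.8, 21.7, 24.6 and 20.3 CPM in the mock libraries, which overlap, with a log2 fold change of 0.15 ± 0.059 (adjusted p = 0.0266). The call was lost when any of mock replicates 1, 3 and 5 or CHIR replicates 1, 3, 4 and 5 was left out, with adjusted p-values of 0.0787, 0.184, 0.11, 0.329, 0.0686, 0.0828 and 0.0844 in that order. RELA was at 79.0, 97.3, 103.8, 97.7 and 97.1 CPM in the CHIR libraries and 78.4, 75.8, 78.3, 78.5 and 81.7 CPM in the mock libraries (0.27 ± 0.045, adjusted p = 1.44e-06). CHIR replicate 1 was the low one and lay within the mock range; over the fits that leave out 1 library each, the change in RELA was between 0.21 and 0.30.

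**Figure D2:**
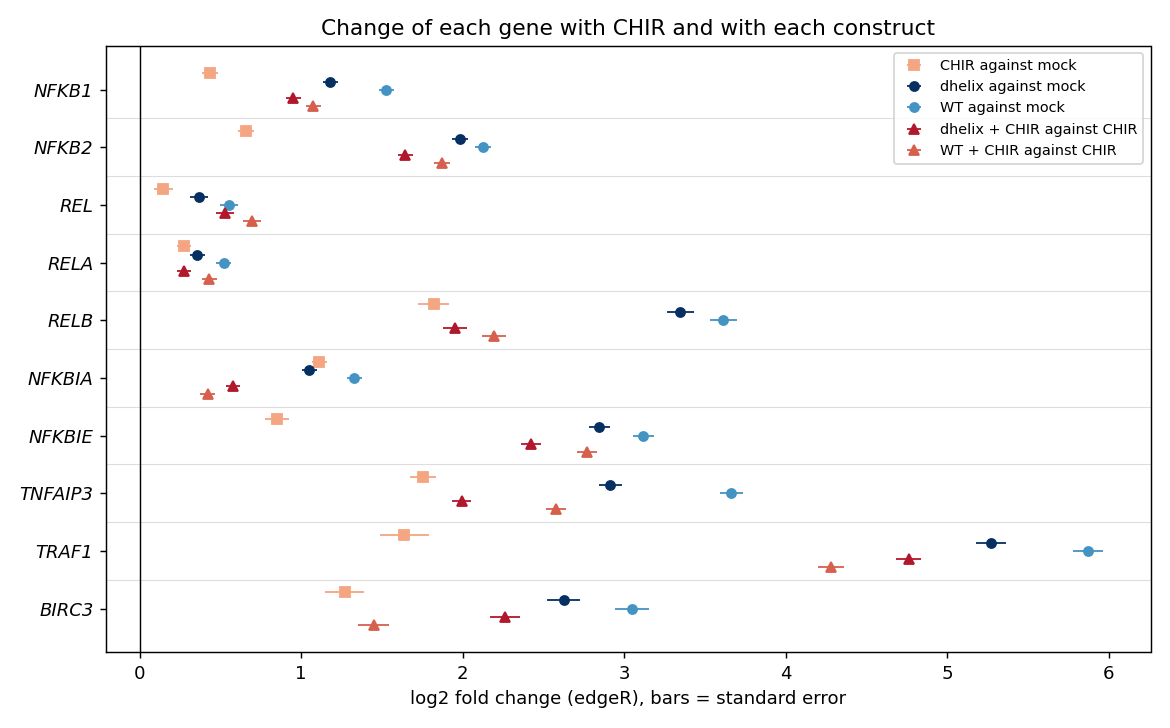
Log2 fold change of each gene, from edgeR with bars of 1 standard error, for CHIR, dhelix FOXP2 and WT FOXP2 against mock cells and for each construct with CHIR against CHIR cells. TRAF1 changed most with both constructs (5.27 and 5.87 against mock cells); REL and RELA lie nearest to 0 against mock cells, while NFKBIA lies nearest to 0 in WT FOXP2 + CHIR against CHIR (0.42).

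The make-up of the subunit RNA shifted with these changes. Levels were divided by the merged exon length of each gene in GENCODE v29, because counts of genes of different length cannot be compared directly; the annotation behind the counts is of another build and not given in the sources used here, so these shares are approximate. RELA made up 18.8% ± 0.712 of the summed CPM per kilobase of the 5 subunit genes with WT FOXP2 and 41.9% ± 0.742 in mock cells. RELB made up 26.2% ± 0.746 with WT FOXP2 and 6.85% ± 0.728 in mock cells, and NFKB2 made up 32.4% ± 0.421 with WT FOXP2 and 23.7% ± 0.849 in mock cells (mean ± SD). The RELA gene thus had the largest share in mock cells, and NFKB2 had it with WT FOXP2.

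With CHIR alone the make-up was intermediate, with 34.1% ± 1.42 RELA, 16.2% ± 1.78 RELB and 25.2% ± 1.03 NFKB2. In dhelix FOXP2 + CHIR the shares were 18.1% ± 0.307 RELA, 27.6% ± 0.469 RELB and 34.6% ± 0.565 NFKB2, and in WT FOXP2 + CHIR they were 17.6% ± 0.332 RELA, 28.4% ± 0.714 RELB and 35.2% ± 0.404 NFKB2. NFKB1 held 20.2% ± 0.548 with WT FOXP2 and 22.4% ± 1.28 in mock cells. REL stayed at or under 5.75% of the sum in every library. Its merged exons span 13170 bases, the most of the 5, which lowers its level per kilobase. Of them 43.3% are shared with AC010733.2, a gene on the same strand whose row has 0 counts in all libraries. How reads of the shared bases were assigned is not given, so the level and share of REL are uncertain.

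**Figure D3:**
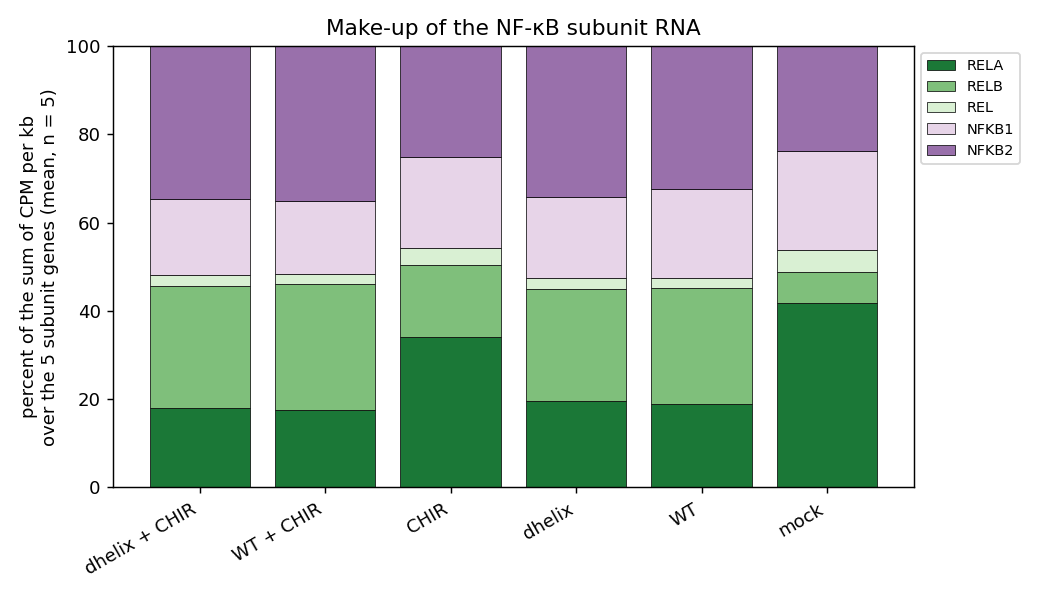
Share of each subunit gene in the summed CPM per kilobase of the 5 subunit genes, in percent, as the mean of 5 libraries in each of the 6 groups. RELA has 17.6% to 19.5% in the 4 groups with a construct and 41.9% in mock cells, and RELB has 25.4% to 28.4% with a construct and 6.85% in mock cells.

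Over all 10 genes, and again per kilobase, the order within a group changed as well. In WT FOXP2 cells NFKB2 (35.5 ± 2.21 CPM per kilobase) and NFKBIE (34.7 ± 2.85) stood highest, whereas RELA (14.4 ± 0.389) and NFKBIA (8.68 ± 0.541) did in mock cells. TRAF1 was the lowest of the 10 in mock cells, at 0.151 ± 0.0187 CPM per kilobase, and stood at 8.91 ± 0.931 in WT FOXP2 cells, above BIRC3 and REL.

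The constructs were then set against CHIR cells, with the drug in both groups. All 10 genes rose with WT FOXP2 + CHIR against CHIR, where 78.4% of tested genes were called, 38.2% as higher and 40.2% as lower, and 7 rose at least 2-fold, against 25.8% of tested genes past this rule and 13.8% as higher. All 10 also rose with dhelix FOXP2 + CHIR against CHIR, where 75.9% were called, 37% as higher and 38.9% as lower. Of these, 6 rose at least 2-fold, against 22% of tested genes past this rule, 12.7% as higher and 9.22% as lower. In neither comparison did the libraries of any of the 10 genes overlap, which held for 60.7% and 56.6% of tested genes. The median log2 fold changes over the 10 genes were 1.66 for WT FOXP2 + CHIR and 1.80 for dhelix FOXP2 + CHIR, each with -0.026 over all tested genes. TRAF1 changed by 4.28 ± 0.078 with WT FOXP2 + CHIR and 4.76 ± 0.077 with dhelix FOXP2 + CHIR, on the log2 scale against CHIR cells. NFKBIE changed by 2.77 ± 0.063 and 2.43 ± 0.063 in the same comparisons, TNFAIP3 by 2.58 ± 0.06 and 1.99 ± 0.061, and RELB by 2.19 ± 0.074 and 1.95 ± 0.074. Both share the CHIR libraries.

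Whether a construct and CHIR combine as the product of their separate changes was asked with an interaction term, the log2 change with the construct in CHIR cells minus that without the drug. For WT FOXP2 it was negative and called for 8 of the 10 genes, against 65.6% of tested genes called and 34.9% as negative, so that the fold change with WT FOXP2 was smaller when CHIR was present. It was at or beyond -1 for 4 of them, against 6.77% of tested genes: BIRC3 (-1.60 ± 0.15), TRAF1 (-1.59 ± 0.16), RELB (-1.42 ± 0.12) and TNFAIP3 (-1.08 ± 0.096). NFKBIA was at -0.91 ± 0.065, NFKB1 at -0.45 ± 0.064, NFKBIE at -0.35 ± 0.094 and NFKB2 at -0.25 ± 0.069. The log2 scale reads these as ratios of folds: TRAF1 was at 59.5 ± 1.59 CPM in WT FOXP2 + CHIR, 3.07 ± 0.349 in CHIR, 57.5 ± 6.003 in WT FOXP2 and 0.976 ± 0.121 in mock cells. Its libraries with WT FOXP2 overlapped with and without the drug, while its CHIR libraries all lay above its mock libraries.

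For dhelix FOXP2 the interaction was also negative and called for 8 genes, the same ones, against 64.8% of tested genes called and 33.7% as negative. Only RELB (-1.40 ± 0.12) was at or beyond -1, against 6.55% of tested genes, followed by TNFAIP3 (-0.92 ± 0.097), while TRAF1 (-0.51 ± 0.16) and BIRC3 (-0.36 ± 0.14, adjusted p = 0.0278) were nearer to 0 than with WT FOXP2. The BIRC3 call was lost without mock replicate 1 (adjusted p = 0.103), mock replicate 5 (0.061), CHIR replicate 1 (0.102) or CHIR replicate 5 (0.111), and without the 3 libraries that stood apart from their groups (0.131). REL and RELA were not called with either construct, at 0.14 ± 0.08 and -0.089 ± 0.063 with WT FOXP2 and 0.16 ± 0.081 and -0.085 ± 0.063 with dhelix FOXP2. Without CHIR replicate 1, the library low in RELA, both genes were called: RELA was then at -0.13 (adjusted p = 0.00735) with WT FOXP2 and -0.15 (0.00223) with dhelix FOXP2, and REL at 0.21 with each (0.00826 and 0.0108). REL was further called without mock replicate 5, at 0.18 (0.0414) with WT FOXP2 and 0.20 (0.0273) with dhelix FOXP2, and without WT FOXP2 + CHIR replicate 5 (0.19 with WT FOXP2, 0.0464).

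**Figure D4:**
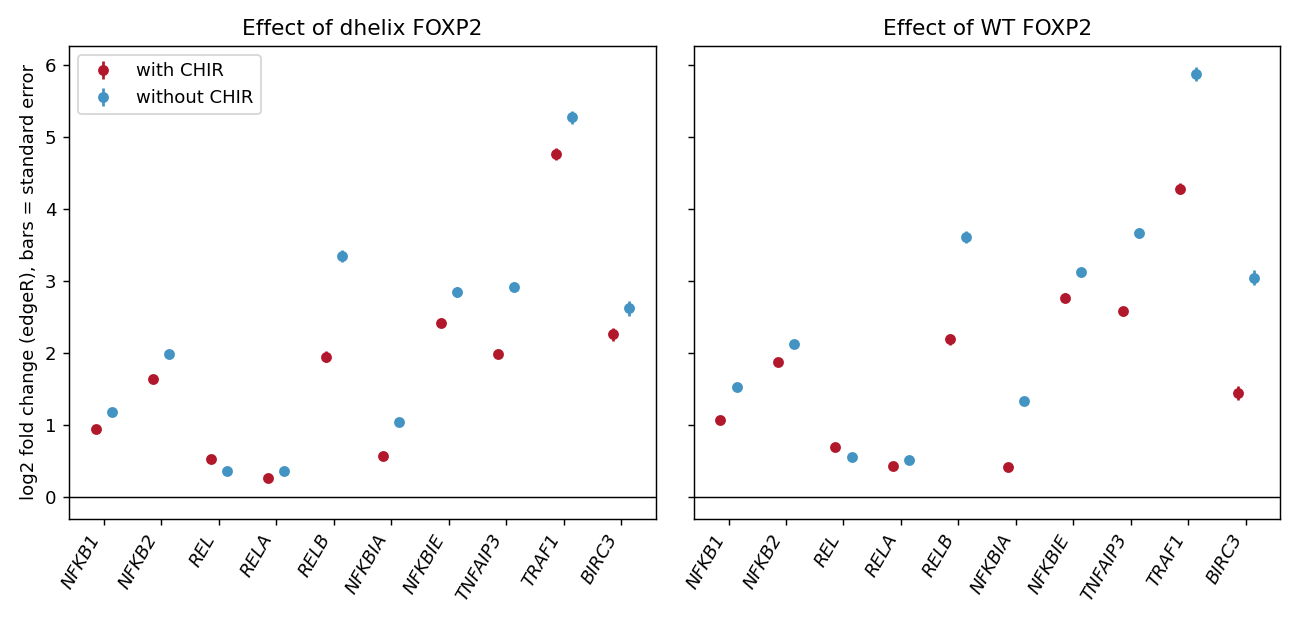
Log2 fold change of each gene with dhelix FOXP2 (left) and WT FOXP2 (right), with CHIR (construct + CHIR against CHIR) and without it (construct against mock), with bars of 1 standard error. Points with CHIR lie below those without it for every gene but REL.

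Seen the other way, CHIR changed none of the 10 genes 2-fold in cells with WT FOXP2. In WT FOXP2 + CHIR against WT FOXP2 cells 7 genes rose and 1 fell, where 64.9% of tested genes were called, 34.8% as higher and 30.2% as lower, against 13.1% called at 2-fold or more. TNFAIP3 changed most, with 120.5, 123.3, 117.0, 119.1 and 121.1 CPM in the WT FOXP2 + CHIR libraries and 62.6, 82.7, 75.7, 84.1 and 72.0 CPM in the WT FOXP2 libraries (0.67 ± 0.053), which do not overlap. BIRC3 was the gene that fell, with 31.9, 31.9, 24.4, 26.1 and 24.8 CPM in the WT FOXP2 + CHIR libraries (-0.33 ± 0.08, adjusted p = 0.000489). NFKB1 (-0.015 ± 0.044, interval -0.10 to 0.07) and TRAF1 (0.047 ± 0.052, interval -0.056 to 0.15) were not called; their signs turned without WT FOXP2 + CHIR replicate 5 for NFKB1 (0.00012) and without WT FOXP2 replicate 1 for TRAF1 (-0.022). FOXP2 reads were themselves 2.16-fold more abundant in WT FOXP2 + CHIR than in WT FOXP2 cells, and the part of this in the results was not tested.

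In cells with dhelix FOXP2 all 10 genes rose with CHIR, where 63.2% of tested genes were called and 34.1% as higher. TRAF1 was the only one to rise at least 2-fold, against 8.55% of tested genes, with 79.7, 82.5, 82.2, 80.3 and 91.3 CPM in the dhelix FOXP2 + CHIR libraries and 36.4, 40.8, 38.5, 36.5 and 37.7 CPM in the dhelix FOXP2 libraries (1.13 ± 0.053). BIRC3 (0.91 ± 0.078), TNFAIP3 (0.83 ± 0.054) and NFKBIA (0.64 ± 0.043) followed, and RELA changed least (0.19 ± 0.044), a call lost when no filter on low counts was used (0.10, adjusted p = 0.0979). The median log2 fold change of the 10 genes was 0.42 here and 0.25 in WT FOXP2 cells, with 0.039 and 0.035 over all tested genes. FOXP2 reads were 2.53-fold more abundant with CHIR here too.

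The comparison of the 2 constructs asks what the deleted residues change. Without CHIR all 10 genes were lower with dhelix FOXP2 than with WT FOXP2, where 35.6% of tested genes were called and 18.7% as lower. None of the 10 differed 2-fold, against 2.56% of tested genes, 1.87% as higher and 0.698% as lower, and the median was -0.28, with 0.0025 over all tested genes. The largest differences were those of TNFAIP3 (-0.75 ± 0.054, adjusted p = 2.39e-13), TRAF1 (-0.60 ± 0.053), BIRC3 (-0.42 ± 0.079) and NFKB1 (-0.34 ± 0.043). For TNFAIP3 the dhelix FOXP2 libraries, at 43.3 to 47.1 CPM, all lay below the lowest WT FOXP2 library, at 62.6 CPM. For 7 of the 10 genes the libraries did not overlap, against 29.9% of tested genes; NFKB2, REL and NFKBIE overlapped. The call for NFKB2 (-0.14 ± 0.045, adjusted p = 0.0136) was lost without WT FOXP2 replicate 2 (0.0632) or replicate 4 (0.0583), and those for NFKB2, REL and RELA were lost when no filter on low counts was used (0.163, 0.0894 and 0.0749). FOXP2 reads were also lower with the dhelix construct, with a log2 fold change of -0.41 ± 0.085, with libraries that overlap; the part of construct level in these differences was not tested.

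With CHIR the 10 genes split. A total of 7 were lower with dhelix FOXP2 + CHIR than with WT FOXP2 + CHIR, and 3 were higher: TRAF1, BIRC3 and NFKBIA. In this comparison 30.6% of tested genes were called, 13.9% as lower and 16.6% as higher, and 24.5% did not overlap, which held for all 10 genes here. None of the 10 differed 2-fold, against 2.16% of tested genes, 1.53% as higher and 0.628% as lower. TRAF1 was at 79.7, 82.5, 82.2, 80.3 and 91.3 CPM in the dhelix FOXP2 + CHIR libraries and 60.3, 58.5, 62.0, 58.5 and 58.5 CPM in the WT FOXP2 + CHIR libraries (0.48 ± 0.052, adjusted p = 3.53e-09). BIRC3 was at 45.9, 50.4, 46.7, 50.5 and 52.3 CPM in the dhelix FOXP2 + CHIR libraries and 31.9, 31.9, 24.4, 26.1 and 24.8 CPM in the WT FOXP2 + CHIR libraries (0.81 ± 0.079, adjusted p = 5.47e-10). NFKBIA was at 67.8, 65.8, 63.0, 70.7 and 64.9 CPM in the dhelix FOXP2 + CHIR libraries and 62.5, 58.7, 58.1, 59.5 and 58.8 CPM in the WT FOXP2 + CHIR libraries (0.16 ± 0.043, adjusted p = 0.00463), a small gap: the lowest library of dhelix FOXP2 + CHIR lay just above the highest of WT FOXP2 + CHIR. The NFKBIA call was lost when no filter on low counts was used (0.0651).

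Of the genes that stayed lower, TNFAIP3 differed most, at 78.4, 77.9, 78.4, 81.4 and 84.6 CPM with dhelix FOXP2 + CHIR and 120.5, 123.3, 117.0, 119.1 and 121.1 CPM with WT FOXP2 + CHIR (-0.58 ± 0.053). NFKBIE (-0.34 ± 0.054), RELB (-0.24 ± 0.066) and NFKB2 (-0.22 ± 0.045) followed. The call for NFKB1 (-0.12 ± 0.044, adjusted p = 0.0301) was lost without WT FOXP2 + CHIR replicate 2 (0.0511), 3 (0.0656) or 4 (0.0523) or without dhelix FOXP2 + CHIR replicate 3 (0.106). FOXP2 reads were not called as different between these groups (-0.18 ± 0.084, interval -0.35 to -0.017, adjusted p = 0.106).

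The difference between the 2 settings was tested as the interaction of the helix deletion with CHIR, the dhelix minus WT difference in CHIR cells less that without the drug. It was called for 4 of the 10 genes, all positive, against 14.2% of tested genes called and 8.93% as positive. BIRC3 (1.24 ± 0.11, adjusted p = 1.09e-09) and TRAF1 (1.08 ± 0.074, adjusted p = 1.06e-12) were called and past 1, as 0.308% of tested genes were, at percentiles 98.4 and 97.7 by size. NFKBIA was at 0.44 ± 0.061 (adjusted p = 4.62e-06). NFKB1 was at 0.22 ± 0.062 (adjusted p = 0.0125), a call lost without WT FOXP2 replicate 2 (0.0776) or 5 (0.0513), dhelix FOXP2 replicate 4 (0.0625) or 5 (0.0563) or dhelix FOXP2 + CHIR replicate 2 (0.0511), and when no filter on low counts was used (0.171). TNFAIP3 was not called (0.16 ± 0.076, adjusted p = 0.154), except without WT FOXP2 replicate 1 (0.20, adjusted p = 0.0405). The intervals of the remaining 5 genes were -0.21 to 0.042 for NFKB2, -0.14 to 0.17 for REL, -0.12 to 0.13 for RELA, -0.16 to 0.21 for RELB and -0.22 to 0.079 for NFKBIE. The signs for REL, RELA and RELB turned under several settings, among them fits without single libraries, where REL ranged between -0.029 and 0.030, RELA between -0.030 and 0.016 and RELB between -0.014 and 0.043.

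**Figure D5:**
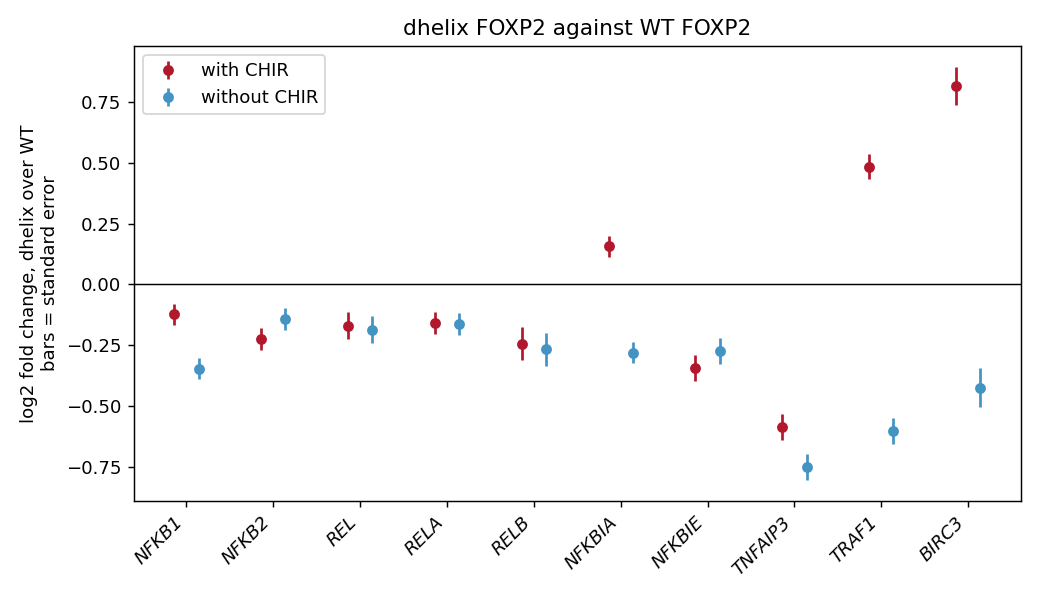
Log2 fold change of dhelix FOXP2 over WT FOXP2 for each gene, with CHIR and without it, with bars of 1 standard error. All 10 points without CHIR lie below 0, and with CHIR those of NFKBIA, TRAF1 and BIRC3 lie above it (0.16, 0.48 and 0.81).

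The order of the 6 groups summarises each gene. For NFKB2, REL, RELA, RELB, NFKBIE and TNFAIP3 it was WT FOXP2 + CHIR, dhelix FOXP2 + CHIR, WT FOXP2, dhelix FOXP2, CHIR and mock, by descending mean. NFKB1 differed in that WT FOXP2 stood level with WT FOXP2 + CHIR at the top, their libraries overlapping. NFKBIA, TRAF1 and BIRC3 had dhelix FOXP2 + CHIR at the top. Among neighbours in the order, REL and RELA each had 3 pairs that overlapped and the other 8 genes 1 pair each; mock was the lowest group for all 10 and overlapped the next group for REL and RELA. The ratio of the highest to the lowest group mean ran from 1.63 for RELA and 1.79 for REL over 2.88 for NFKB1, 3.22 for NFKBIA and 5.78 for NFKB2 to 11.6 for BIRC3, 12.3 for NFKBIE, 16.2 for RELB, 20.1 for TNFAIP3 and 85.2 for TRAF1. Between libraries of 1 group the variation was small: 7.57% of the variance of log2 CPM lay within groups for RELA, 7.24% for REL and at most 1.61% for the other 8.

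Changes are set here beside the matches in the windows, and a link between them was not tested. RELB and NFKBIE had no window. RELA and TRAF1, the 2 genes without a match to the κB consensus in their windows, had the smallest and the largest log2 fold change with WT FOXP2 against mock cells, 0.52 and 5.87. REL, with overlapping matches near its start site in the stretch shown above, changed by 0.55, and TNFAIP3, with 2 matches set closely together, by 3.66.

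Further genes of the pathway were described from lists by role, and each count is to be read against the shares of all tested genes. With WT FOXP2 against mock cells 39.9% of tested genes rose and 41.6% fell, with dhelix FOXP2 39.6% and 40.9%, and with CHIR 38.8% and 35.3%. With CHIR in both groups 38.2% rose and 40.2% fell with WT FOXP2 + CHIR, and 37% and 38.9% with dhelix FOXP2 + CHIR. Of 18 other IκB proteins and negative regulators, 15 rose and 1 fell with WT FOXP2 against mock cells (median 0.58), 15 rose and 1 fell with dhelix FOXP2 (0.46), and 9 rose and 7 fell with CHIR (0.14), the last a split near that of all tested genes. NFKBIB, which encodes IκBβ, was at 87.1 CPM with WT FOXP2 and 19.6 CPM in mock cells (2.15 ± 0.063). CYLD, a deubiquitinating enzyme that restrains the pathway, was at 110.5 and 30.0 CPM in the same groups (1.88 ± 0.045) and fell with CHIR against mock cells (-0.85 ± 0.052). ZC3H12A, an RNase that degrades cytokine transcripts, rose with WT FOXP2 (1.98 ± 0.071) and so did NFKBIZ, a nuclear IκB protein (1.31 ± 0.053). With CHIR in both groups, 13 of the 18 rose and 3 fell with WT FOXP2 + CHIR against CHIR, led by CYLD (2.85 ± 0.049).

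Upstream of the inhibitors lie kinases and adaptors. Of 16 genes for the IκB kinase complex and the kinases above it, 11 rose and 4 fell with WT FOXP2 against mock cells. Their median was 0.29, and 2 of the 16 rose at least 2-fold, a share near the 13.4% of all tested genes. These 2 kinases were IRAK2, of interleukin-1 receptor signalling (1.72 ± 0.13), and MAP3K14, the NF-κB-inducing kinase of the non-canonical arm (1.24 ± 0.061). MAP3K14 was at 49.1 CPM with WT FOXP2 and 20.8 CPM in mock cells. Of 17 adaptors and ubiquitin ligases, 9 rose and 5 fell (median 0.19), so that 14 were called, a share near the 81.6% of all tested genes. Among them BIRC2, which encodes cIAP1, the close relative of BIRC3, rose (1.08 ± 0.059), as did BCL10 (1.31 ± 0.049) and TICAM1 (1.34 ± 0.085), 2 signalling adaptors.

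Of 18 tested receptors, 9 rose and 5 fell with WT FOXP2 against mock cells, and 10 rose and 6 fell with CHIR; the 14 called with WT FOXP2 are again a share near the 81.6% of all tested genes. TNFRSF9, a TNF receptor family member whose tail binds TRAF proteins, was at 25.4 CPM with CHIR and 2.42 CPM in mock cells (3.41 ± 0.09), and at 19.0 CPM with WT FOXP2 (2.99 ± 0.092). Only 6 of 16 ligands were high enough to test. IL1A, which encodes interleukin-1α, was at 11.2 CPM with WT FOXP2 and 0.0903 CPM in mock cells (6.80 ± 0.23). TNF and IL1B, the best-known inducers of the pathway and named here after their values were seen, had 0 counts in all CHIR and mock libraries, where 3 counts would be 0.0989 to 0.189 CPM, and at most 8 counts in any library with a construct.

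Of 33 tested genes described as NF-κB targets, 18 rose and 11 fell with WT FOXP2 against mock cells (median 0.76), and 14 rose and 14 fell with CHIR (-0.11), where 81.6% and 74.1% of all tested genes were called. BCL2A1, a survival gene of the BCL2 family (7.95 ± 0.14), and IL8, a neutrophil attractant (7.86 ± 0.13), had the largest rises with WT FOXP2 among those named, while TNFAIP6 was at 0.108 CPM with WT FOXP2 and 17.6 CPM in mock cells (-7.16 ± 0.19). With CHIR in both groups, 24 of the 33 rose and 5 fell with WT FOXP2 + CHIR against CHIR (median 1.43), and 26 rose and 4 fell with dhelix FOXP2 + CHIR (1.51). The interferon response genes have an inducing pathway of their own: of 12 tested, 2 rose and 10 fell with WT FOXP2 against mock cells, where 41.6% of all tested genes fell (median -1.40), IFIT1 the most (-4.32 ± 0.16).

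The genes with the pattern most like that of a member were named for 8 of the 10, as the 3 with the highest Pearson correlation (r, in parentheses) of log2 CPM over the 30 libraries among 15144 genes compared. Among the subunits, NFKB1 was most like BMS1 (0.993), NOLC1 (0.99) and C10orf2 (0.99), and NFKB2 most like SPHK1 (0.995), SCN4A (0.995) and FLNC (0.993). For RELA these were DHX34 (0.986), MED15 (0.984) and PELP1 (0.98). The inhibitor gene NFKBIA was most like SEC61A1 (0.981), RPLP0P2 (0.979) and EIF2B1 (0.979), and NFKBIE most like SH2B3 (0.995), RAB35 (0.994) and SPHK1 (0.994). Among the regulators, TRAF1 was most like SEMA7A (0.995), TPD52L2 (0.994) and PNP (0.994), and TNFAIP3 most like XPO6 (0.996), TRIML2 (0.992) and WDR77 (0.991). BIRC3 was most like TFRC (0.978), IL8 (0.974) and MAPRE1 (0.971), and IL8 was the single described NF-κB target among these genes. The 30 libraries share their group means and scaling, so any gene that follows the 6 groups in the same order scores high.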

How the data were processed

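Messenger RNA libraries (stranded, paired-end, 30 in all) were made from 6 groups of 5, per the labels. The authors deposited raw gene counts, whole numbers and not normalized; hg19, STAR 2.6.1a, Subread, featureCounts and DESeq2 are listed without roles in the submitters' processing notes, while annotation and strand setting are not given in the sources read. Here, edgeR 4.0.16 in R 4.3.3 filtered the counts (18485 of 57373 genes kept, with 99.9% of counts), scaled them by trimmed means of M values and fitted 1 robust quasi-likelihood model over the 6 groups. In all, 9 pairs of groups and 3 interactions were tested, with Benjamini-Hochberg adjustment over all tested genes and a threshold of 0.05; a second rule asked for at least 2-fold. A standard error is the log2 fold change divided by the square root of F. The step was tested on simulated data. Exon lengths come from GENCODE v29. The members and lists were chosen with earlier results of these data known. All members are named; of each list, up to 4 genes per comparison with the largest changes among called genes at a mean of at least 1 CPM whose groups do not overlap, and the 3 genes most like a member, which are not reported here for REL and RELB. Alternatives were DESeq2 size factors, DESeq2 1.42.0, 2 other filters, a replicate block, FOXP2 left out of library sizes, the compared groups alone and libraries left out. Libraries carry no molecular identifiers, and total counts limit the precision of low genes.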

Additional observations from a re-analysis of the deposited data

Results flagged for a closer look

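In 3 of 60 sets of 5 libraries, 1 library lay far from the rest of its group, as many as chance gives at about 1 in 20. RELA was at 79.0 CPM in CHIR replicate 1, with 97.1 to 103.8 CPM in the other 4. TRAF1 was at 91.3 CPM in dhelix FOXP2 + CHIR replicate 5, with 79.7 to 82.5 CPM in the others. BIRC3 was at 23.3 CPM in dhelix FOXP2 replicate 3, with 26.3 to 27.3 CPM in the others. CHIR replicate 1 also differed from its group over many genes, by a chi-square per gene that sets count differences against sampling noise. This was 18.8 to 34.8 in its pairs and 1.78 to 4.14 among the other CHIR libraries. For dhelix FOXP2 replicate 5 it was 10.3 to 11.6, with 1.57 to 3.24 among the others. For WT FOXP2 + CHIR replicate 4 it was 4.83 to 7.69, with 1.39 to 3.55 among the others.

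The effect of a construct differed with and without CHIR, by the interaction test, for 8 genes with each construct. With WT FOXP2 the interactions (log2) were -0.45 for NFKB1, -0.25 for NFKB2, -1.42 for RELB, -0.91 for NFKBIA, -0.35 for NFKBIE, -1.08 for TNFAIP3, -1.59 for TRAF1 and -1.60 for BIRC3. With dhelix FOXP2 they were -0.23 for NFKB1, -0.34 for NFKB2, -1.40 for RELB, -0.47 for NFKBIA, -0.42 for NFKBIE, -0.92 for TNFAIP3, -0.51 for TRAF1 and -0.36 for BIRC3. The difference between the constructs also changed with CHIR, by 0.22 for NFKB1, 0.44 for NFKBIA, 1.08 for TRAF1 and 1.24 for BIRC3.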

How the results depend on the processing

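Of 2460 values of single genes under alternatives, 2365 kept their direction and their side of the threshold, 34 fell short of it, 14 newly passed it and 47 turned sign; all that turned were uncalled as reported. Asking for at least 2-fold left 5 genes called in CHIR against mock, 0 in dhelix FOXP2 against WT FOXP2, 6 in dhelix FOXP2 + CHIR against CHIR, 0 in dhelix FOXP2 + CHIR against WT FOXP2 + CHIR, 0 in WT FOXP2 + CHIR against WT FOXP2, 1 in dhelix FOXP2 + CHIR against dhelix FOXP2, and 4, 1 and 2 in the interactions of WT FOXP2, dhelix FOXP2 and the helix deletion with CHIR. Leaving out single libraries gave 9 to 10 called genes in CHIR against mock and in each comparison of the 2 constructs, and 8 to 10, 7 to 9 and 3 to 5 in the interactions of WT FOXP2, dhelix FOXP2 and the helix deletion; the other 6 comparisons kept their counts. In the last of these interactions, no filter on low counts gave -0.045 for REL, -0.058 for RELA and -0.038 for RELB, and a mean of at least 1 CPM gave -0.0081, -0.020 and -0.00071. Without the 3 libraries that stood apart (CHIR replicate 1, dhelix FOXP2 replicate 5 and WT FOXP2 + CHIR replicate 4) REL was at -0.0023 and RELA at -0.020. RELA was at -0.0034 with DESeq2 size factors, -0.0033 with DESeq2, -0.0022 with FOXP2 left out of library sizes and -0.012 in a fit of the compared groups. Leaving out single libraries gave -0.029 to 0.030 for REL, -0.030 to 0.016 for RELA and -0.014 to 0.043 for RELB there, and, in WT FOXP2 + CHIR against WT FOXP2, -0.052 to 0.00012 for NFKB1 and -0.022 to 0.091 for TRAF1. The cause was not tested. REL in CHIR against mock lost its call under 12 of 18 alternatives (adjusted p between 0.0101 and 0.344).

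Same-numbered libraries had weak correlations of deviations, from -0.0775 to 0.145, with 1 of 45 pairs over 0.1. Of 30 libraries 10 correlated best with their own number. The number that unpaired libraries would give was not computed, so pairing by number is not settled. A replicate block left each count of the 10 genes as it was, and moved the count of all called genes by at most 1.03 times.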
